A study of Mus musculus with 8 samples.

Results

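The nuclear genes for the subunits of respiratory complexes II, III, IV and V were compared between the fasted livers of mice with phosphorylation-resistant perilipin 5 and of wild-type mice. Members were taken from the gene count table by symbol. They were Cyc1, Sdha, Sdhb, Sdhc and Sdhd, and every symbol that consists of Uqcr, Cox4i, Cox5, Cox6, Cox7, Cox8 or Atp5 followed by letters or digits alone, so that hyphenated pseudogene symbols such as Atp5l-ps1 are left out. This gave 48 of the 45706 genes listed, with 4 for complex II, 9 for complex III, 18 for complex IV and 17 for complex V. Of these, 43 passed the filter on low counts and were tested among 14629 genes, with 4, 9, 13 and 17 in complexes II to V. Cox7a2l, Atp5s and Atp5sl share the naming pattern but are assembly or coupling factors rather than core subunits, and they are kept in the counts and named where they stand.

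RNA was sequenced from the livers of 4 WT and 4 S155A mice, with 1 library per mouse. All 8 mice were females of the C57BL/6J strain, 4 months old, kept on chow and fasted overnight, so no fed animal serves as a reference. In S155A mice, called SA/SA in the study, CRISPR-Cas9 editing had replaced by alanine, in the whole body, a serine of perilipin 5 (PLIN5), a lipid droplet protein that protein kinase A phosphorylates at this residue. The edit was verified by sequencing in a founder mouse, and the relation of the WT mice to that line is not stated. The labels give the cell type as hepatocytes, but the extraction text names the liver, so the values are taken to be those of the whole organ. In bulk tissue, fewer cells of a type and less RNA per cell cannot be told apart.

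The respiratory chain sits in the inner mitochondrial membrane. Complex II (succinate dehydrogenase) oxidizes succinate in the citric acid cycle and hands the electrons to ubiquinone without pumping protons. Complex III (the cytochrome bc1 complex) passes electrons from ubiquinol to cytochrome c, and complex IV (cytochrome c oxidase) passes them on to oxygen. Both pump protons, and complex V (ATP synthase) uses the proton gradient to make ATP. Complex II is encoded wholly by nuclear genes, whereas complexes III, IV and V also hold subunits encoded by mitochondrial DNA. In the fasted liver, the oxidation of fatty acids feeds electrons into this chain, and the ATP it yields is spent on glucose synthesis.

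Values are estimated counts per gene, shown in CPM. This unit relates each count to the size of its library, here corrected by the TMM factors of edgeR. The libraries held between 39709785 and 54540864 counts, and the 48 genes took between 0.954% and 1.16% of them. Hepatocyte marker genes (Alb, Apoa1, Ttr, Serpina1c, Tat and Cyp2e1) summed to between 95600 and 109000 CPM in WT mice and between 91400 and 130000 CPM in S155A mice. Of 6 hepatocyte markers, 4 were higher in the S155A mean, and none had an unadjusted p under 0.05. Of pancreatic acinar cell markers, 1 of 5 passed the filter and had an unadjusted p under 0.05, and the list summed to 26.8 CPM in WT 2 and to between 0.0421 and 0.612 CPM in the other 7 mice. Plin5, the edited gene, was at 254, 194, 183 and 194 CPM in WT 1 to 4 and at 457, 276, 192 and 386 CPM in S155A 1 to 4. Gene counts cannot show the edit itself.

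Levels per transcript length differed widely between the members. Per kb of the longest principal transcript, mean CPM over the 8 mice was highest for Atp5b, the catalytic beta subunit of ATP synthase, at 687 (range 554 to 797). It was followed by Cox4i1, the common isoform of cytochrome c oxidase subunit 4, at 658 (range 575 to 737), and Atp5g3, which encodes subunit c of the membrane rotor, at 615 (range 518 to 647). The ranges of these 3 genes over mice overlapped, so their order is not resolved. At the other end, Cox6b2, the testis isoform of subunit 6B, was at 3.41 CPM per kb, Atp5s at 3.04 and Cox7a1, the heart and muscle isoform of subunit 7A, at 2.84. The level depends on the transcript length assumed. For 4 members the longest and shortest principal transcripts differ by more than 1.5 times in length. Atp5g1 stood at 51.2 CPM per kb with the longest and at 405 with the shortest, and Uqcrq, a small accessory subunit of complex III, at 244 and 918.

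**Figure D1:**
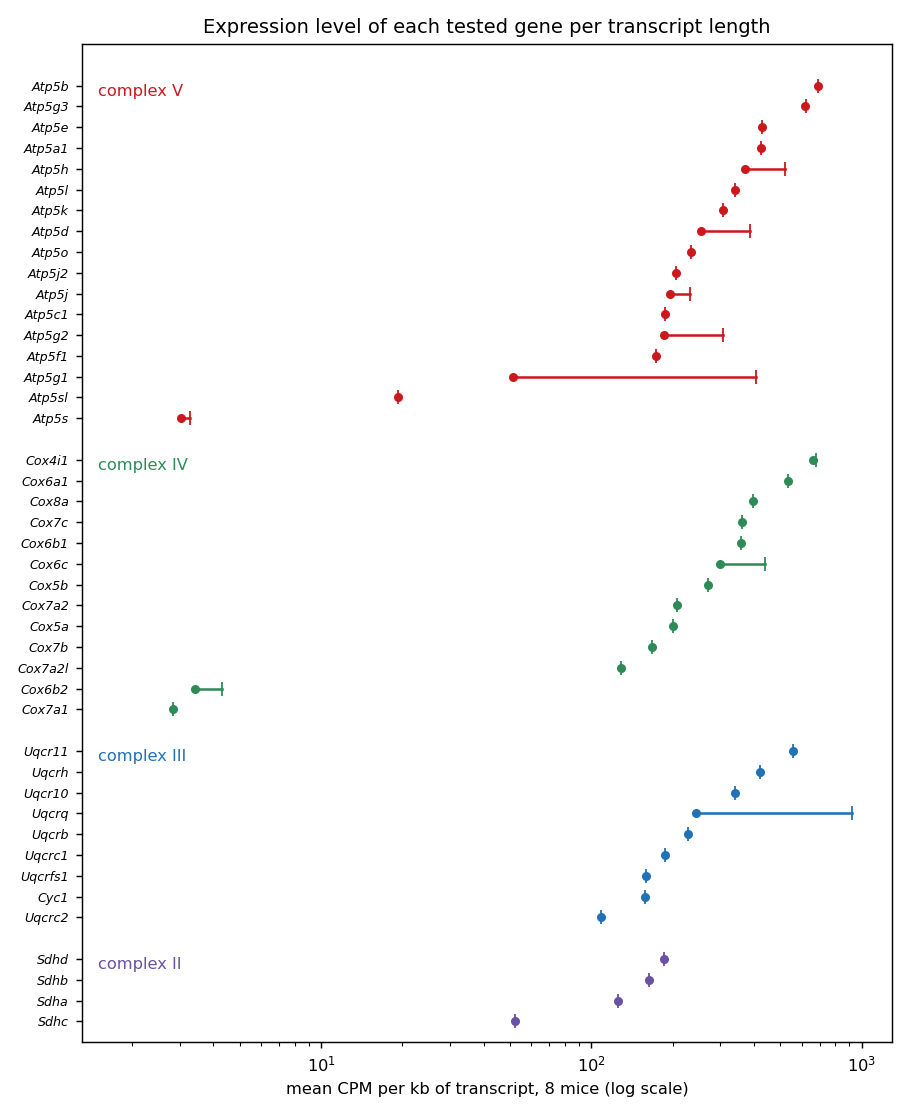
Mean level over the 8 mice for each of the 43 tested genes, in CPM per kb of transcript on a log axis, by complex. Dots use the longest principal transcript and vertical ticks the shortest. Most genes lie between Uqcrc2 at 109 and Atp5b at 687 CPM per kb, while Cox7a1, Atp5s and Cox6b2 lie under 5.

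For the complex IV subunits that have tissue isoforms, nearly all counts lay with the liver or common isoform. Cox6a1, the liver isoform of subunit 6A, held a mean of 293 ± 43.1 CPM in WT mice and 315 ± 28.8 CPM in S155A mice (SD, n = 4 each). The heart and muscle isoform Cox6a2 had 4, 7, 6 and 4 counts in WT mice and 0, 2, 0 and 2 counts in S155A mice. Its genotypes did not overlap at these low counts, its edgeR adjusted p without the filter was 0.854, and it overlaps Itgad on the other strand. Cox4i2, an isoform known from lung, had between 0 and 5 counts per library, and Cox8b, a heart and muscle isoform, between 0 and 9.3. The testis isoforms Cox7b2 and Cox8c had 0 counts in all 8 libraries, which allows up to 3 counts in each, or between 0.055 and 0.0755 CPM by library (counting error only). These 5 genes are the members that did not pass the filter. The skeletal muscle markers Acta1 and Myh4 were also at 0 in every library.

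No subunit gene differed between the genotypes by the test used, edgeR's quasi-likelihood test on all 14629 genes with Benjamini-Hochberg adjustment. The count at an adjusted p under 0.05 was 0 of 43 members, where the share over all genes was 0.0%. At an unadjusted p under 0.05 the count was also 0 of 43, where 3.4% of all genes passed, 1.42% higher and 1.98% lower in S155A mice. For 0 of 43 members did the 4 S155A mice lie wholly above or below the 4 WT mice, where 2.3% of all genes did so, 0.943% higher and 1.36% lower. DESeq2 and limma-voom also called 0 members at an adjusted p under 0.05, where the shares over all genes were 0.0347% and 0.0%. Each had 0 members at an unadjusted p under 0.05, where the shares were 3.14% and 3.19%.

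The estimates were small and leaned to one side. The log2 fold change (S155A over WT) was above 0 for 41 of 43 members, against 48.8% of all genes tested, and its median was 0.12, against -0.005 for all genes. Genes above 0 are called higher here. By complex, the median was 0.06 in complex II with 3 of 4 genes higher, 0.12 in complex III with 9 of 9, 0.11 in complex IV with 12 of 13 and 0.14 in complex V with 17 of 17. Subunits share mice, so these genes are not separate observations, and the counts describe these 8 livers. With library size alone in place of TMM, 39 of 43 were higher, Sdhd and Uqcrc2 turning to just below 0, and the median was 0.08, while the median of all genes moved to -0.04. The median over the members was 0.056 without WT 4, 0.062 without S155A 2 and 0.165 without WT 2.

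The data bound how large a genotype difference could be. All 43 intervals (95%) of the log2 fold change held 0. Only that of Cox7a1, a gene at about 1 CPM, reached 1, a doubling. For the 40 members with a mean of at least 10 CPM, standard errors lay between 0.097 and 0.205, the lowest bound was -0.325 and the highest was 0.638, or 1.56-fold.

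**Figure D2:**
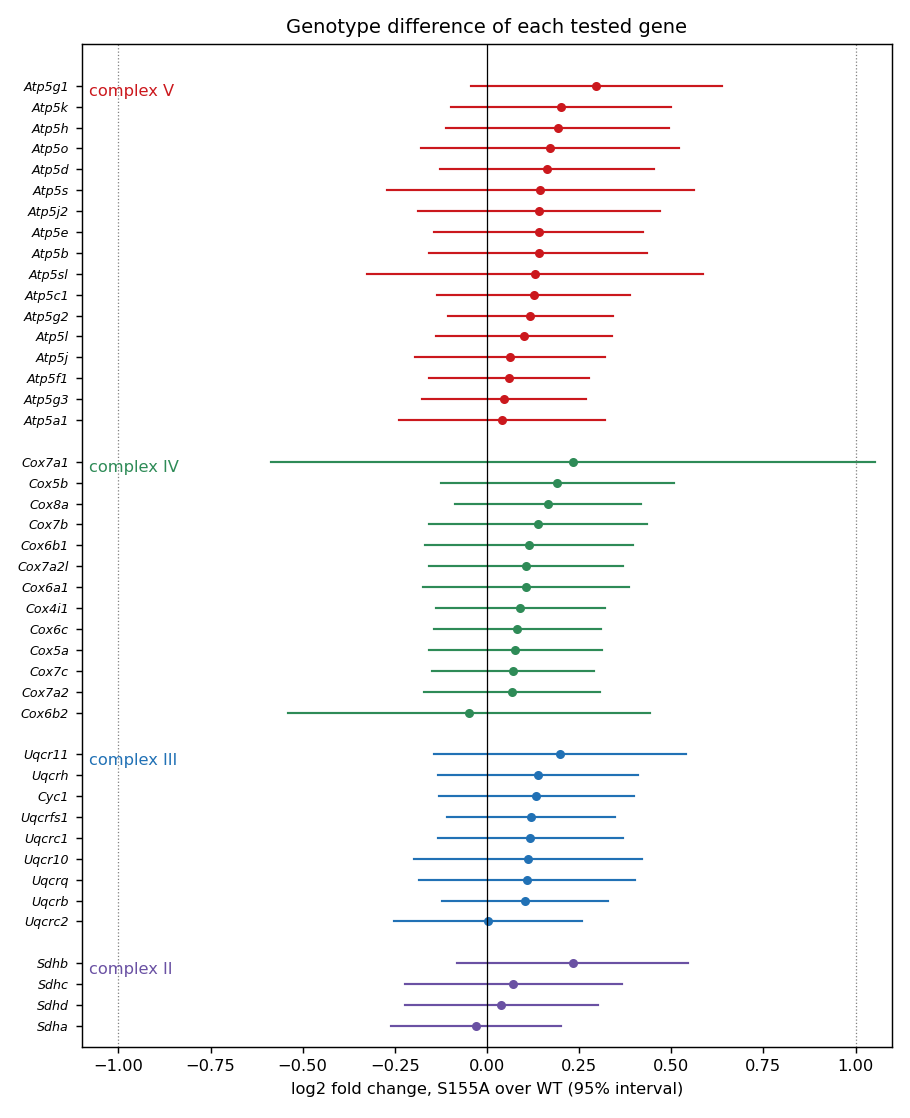
Log2 fold change of S155A over WT for each of the 43 tested genes by complex, with dots for the estimate from edgeR and bars for its 95% interval (4 mice per genotype). Dotted lines mark a change of 1 in either direction. Every bar crosses 0, and 41 dots lie to the right of it.

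In complex II, the iron-sulfur subunit Sdhb (ENSMUSG00000009863, chr4:140961203-140979193, forward strand) had the smallest p. It was at 199, 185, 160 and 142 CPM in WT 1 to 4 and at 168, 221, 228 and 188 CPM in S155A 1 to 4. The genotypes overlapped, with the 2 highest mice both S155A and the 2 lowest both WT. The log2 fold change was 0.23 with a standard error of 0.14 (edgeR adjusted p = 0.993, and p = 0.171 by a two-sided exact permutation test). Sdha, the flavoprotein that oxidizes succinate and the member of complex II with the highest CPM, stood at 370 ± 20.2 CPM in WT and 363 ± 36.6 CPM in S155A mice (SD, n = 4 each), a log2 fold change of -0.03. The membrane anchors Sdhc and Sdhd had log2 fold changes of 0.07 and 0.04 with standard errors of 0.13 and 0.12. The catalytic pair Sdha and Sdhb thus had the lowest and the highest estimate of the complex, and their intervals overlapped (-0.26 to 0.20 and -0.08 to 0.55).

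In complex III, the genes of the electron-carrying subunits were Cyc1 (cytochrome c1) and Uqcrfs1 (the Rieske iron-sulfur protein). Cyc1 was at 237, 262, 228 and 189 CPM in WT mice and 248, 278, 250 and 231 CPM in S155A mice. Uqcrfs1 was at 218, 224, 212 and 175 CPM in WT mice and 225, 231, 228 and 217 CPM in S155A mice. In both genes the WT 4 liver was the lowest of the 8 and the S155A 2 liver the highest. The log2 fold changes were 0.13 (standard error 0.12) for Cyc1 and 0.12 (standard error 0.10) for Uqcrfs1, each at an edgeR adjusted p of 0.993. For Uqcrfs1, 3 of the 4 S155A mice lay above every WT mouse, and the exact permutation p was 0.114 (two-sided).

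The core proteins of complex III, Uqcrc1 and Uqcrc2, form its large matrix-side domain. Uqcrc1 was at 297 ± 36.2 CPM in WT mice and 322 ± 21.6 CPM in S155A mice (SD, n = 4 each). Uqcrc2 was at 206 ± 28.8 CPM and 206 ± 4.31 CPM, so its means were the same and its spread was wider in WT mice, from 166 to 232 CPM against 203 to 213 CPM. Of the small accessory subunits, Uqcr11 (ENSMUSG00000020163, chr10:80402997-80406830, reverse strand) had the smallest p of the complex. It was at 181, 281, 247 and 217 CPM in WT mice and at 245, 318, 266 and 231 CPM in S155A mice, with a log2 fold change of 0.20 (standard error 0.15, edgeR adjusted p = 0.993, exact permutation p = 0.286, two-sided). Of the 4 S155A values of Uqcr11, 3 lay within the WT range. The hinge protein Uqcrh, which is acidic and lies near cytochrome c1, and Uqcrq, the member of complex III with the highest CPM, had log2 fold changes of 0.14 and 0.11.

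In complex IV, Cox8a (ENSMUSG00000035885, chr19:7215153-7217616, reverse strand), the common isoform of subunit 8, had the smallest p. It was at 192, 242, 205 and 185 CPM in WT mice and at 221, 257, 229 and 216 CPM in S155A mice. Here 3 WT mice lay below every S155A mouse, and WT 2 was the second highest of the 8. The log2 fold change was 0.17 (standard error 0.11, edgeR adjusted p = 0.993, exact permutation p = 0.143, two-sided). Cox5b, a zinc-binding subunit on the matrix side, was at 224, 251, 217 and 184 CPM in WT mice and 207, 281, 288 and 223 CPM in S155A mice, with a log2 fold change of 0.19 (standard error 0.14). Its 2 highest values belonged to S155A 2 and S155A 3 and its lowest to WT 4.

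Cox4i1, the member of complex IV with the highest CPM, was at 488 ± 45.1 CPM in WT and 519 ± 31.5 CPM in S155A mice (SD, n = 4 each), with a log2 fold change of 0.09. Where a liver or common isoform and another isoform were both measurable, the liver or common form had the higher level and the tighter estimate. Cox7a2, the liver isoform of subunit 7A, stood 0.07 higher on the log2 scale (standard error 0.11), and for Cox7a1 it was 0.23 (standard error 0.37) at means of 1.03 and 1.21 CPM. Cox6b1, the common isoform of subunit 6B, had 0.11 (standard error 0.13), and Cox6b2 had -0.05 (standard error 0.22) at means of 2.03 and 1.96 CPM. Cox7b had 0.14 and Cox6a1 0.11. Cox7a2l, a factor for supercomplexes of III and IV that is related to subunit 7A, had 0.11 (standard error 0.12).

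**Figure D3:**
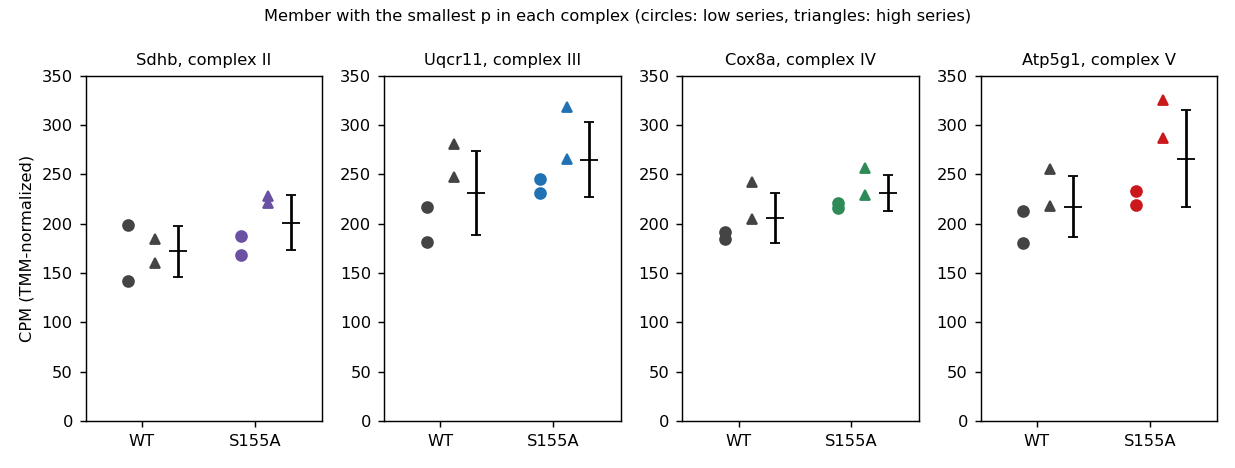
CPM of the member with the smallest p in each complex, one symbol per mouse, with the mean and SD of each genotype (n = 4) beside the symbols. Circles mark mice with low animal numbers and triangles those with high numbers. WT and S155A mice overlap in all 4 panels, and S155A 2 or S155A 3 is the highest mouse in each.

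In complex V, the F1 head that makes ATP is built from the products of Atp5a1 (alpha), Atp5b (beta), Atp5c1 (gamma), Atp5d (delta) and Atp5e (epsilon). Atp5b, the member with the highest CPM, was at 1220, 1490, 1240 and 1060 CPM in WT mice and 1180, 1530, 1480 and 1330 CPM in S155A mice. The highest mice of the 2 genotypes, at 1490 and 1530 CPM, were close to each other. The log2 fold changes of the 5 head genes were 0.04 for Atp5a1, 0.14 for Atp5b, 0.13 for Atp5c1, 0.16 for Atp5d and 0.14 for Atp5e, with standard errors between 0.12 and 0.13. Of the stalk and membrane parts, Atp5h (subunit d of the peripheral stalk) was at 236 ± 31.8 CPM in WT and 270 ± 36.0 CPM in S155A mice, and Atp5k (subunit e, which bends the membrane at dimers) at 106 ± 13.2 and 122 ± 17.7 CPM (SD, n = 4 each). Their log2 fold changes were 0.19 and 0.20, with standard errors of 0.14 and 0.13. The ATP synthase inhibitor is listed in the table under its older symbol Atpif1, which the naming rule does not take in, so it is not a member.

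Subunit c, which forms the rotor ring in the membrane, is encoded by 3 genes whose mature protein is the same while the leader peptides differ. Atp5g1 (ENSMUSG00000006057, chr11:96068852-96075670, reverse strand) had the smallest p of all 43 members. It was at 213, 255, 218 and 180 CPM in WT 1 to 4 and at 219, 325, 287 and 233 CPM in S155A 1 to 4. In all, 3 WT mice lay below every S155A mouse, while WT 2 was above S155A 1 and S155A 4. The log2 fold change was 0.30 (standard error 0.15, 95% interval -0.04 to 0.64, edgeR unadjusted p = 0.081, adjusted p = 0.993, exact permutation p = 0.143, two-sided), and the gene ranked 927 by p among all genes tested. Atp5g2 was at 124, 147, 129 and 123 CPM in WT mice and 128, 150, 148 and 141 CPM in S155A mice. Atp5g3 was at 459, 465, 453 and 375 CPM in WT mice and 467, 447, 446 and 447 CPM in S155A mice. The 3 genes thus gave log2 fold changes of 0.30, 0.12 and 0.05, and whether these differ from each other was not tested.

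Reads of the 3 subunit c genes can be told apart only where their sequences differ, so the ends of their coding sequences are shown. The last 120 coding bases, stop codon included, are printed 5′ to 3′ in the direction of transcription from GENCODE release M21 (GRCm38). Coordinates span the 2 exons (exons 4 and 5) they lie on, and capitals mark the 31 positions at which the 3 genes are not all alike.
Atp5g1, chr11:96073104-96073527, reverse strand: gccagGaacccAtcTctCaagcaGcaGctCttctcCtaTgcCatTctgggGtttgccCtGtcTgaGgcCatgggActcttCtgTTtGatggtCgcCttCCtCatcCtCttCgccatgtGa
Atp5g2, chr15:102663014-102665058, reverse strand: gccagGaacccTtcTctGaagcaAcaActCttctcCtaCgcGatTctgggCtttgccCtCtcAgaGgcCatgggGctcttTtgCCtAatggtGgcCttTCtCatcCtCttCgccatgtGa
Atp5g3, chr2:73908593-73909188, reverse strand: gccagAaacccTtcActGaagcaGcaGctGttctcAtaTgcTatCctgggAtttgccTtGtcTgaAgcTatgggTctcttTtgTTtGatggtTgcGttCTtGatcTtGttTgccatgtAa
Atp5g1 and Atp5g2 were identical at 86.7% of these bases, Atp5g1 and Atp5g3 at 81.7%, and Atp5g2 and Atp5g3 at 76.7%. Differing positions are spread over the whole stretch. How the authors' counting divided reads between the 3 genes cannot be read from the table.

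The remaining 10 members (Uqcr10, Uqcrb, Cox5a, Cox6c, Cox7c, Atp5f1, Atp5j, Atp5j2, Atp5l and Atp5o) had mean levels between 122 and 277 CPM and log2 fold changes between 0.06 and 0.17, with no unadjusted p below 0.303. Atp5s and Atp5sl, the factors named with complex V, had log2 fold changes of 0.14 and 0.13. Atp5sl encodes an assembly factor of complex I (DMAC2) and is counted with complex V by its symbol alone. In the annotation, 14 members overlap a gene of the other strand, and the sources do not say if strand entered the counting. Atp5j, for a stalk subunit, overlaps Gabpa, an ETS-family regulator of respiratory genes, in this way. Rows named as pseudogenes of members (Atp5k-ps2, Atp5l-ps1 and Atp5l-ps2) held between 5 and 11 counts per library in all.

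The members varied together from mouse to mouse. For each mouse, the deviation of each gene's log2 CPM from its mean over the 8 mice was taken, and the median over the 43 genes was -0.05, 0.10, -0.02 and -0.22 in WT 1 to 4 and -0.12, 0.23, 0.11 and -0.02 in S155A 1 to 4. WT 4 was the lowest mouse for 30 of the 43 genes, and S155A 2 the highest for 29. The mean of these medians was -0.05 in WT and 0.05 in S155A mice, with a within-genotype SD of 0.14. Over all genes tested, the same median lay between 0.001 and 0.009 in every mouse. TMM scaling brings the typical gene near 0 in each mouse, so this value was largely set by the scaling.

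The 4 complexes showed the same 2 extremes with a few exceptions. WT 4 had the lowest median in each complex, from -0.27 in complex II to -0.22 in complexes III and IV. S155A 2 had the highest in complexes III, IV and V, at 0.22, 0.18 and 0.24, while in complex II it stood at 0.15 and S155A 3 at 0.17. WT 1 was above its mean in complex II, at 0.10, and below it in complex IV, at -0.12, and complex V, at -0.09. The summed level of the complex V genes was 4480 CPM in WT 4 and 6210 CPM in S155A 2, with the other 6 mice between 4980 and 5900 CPM. Before any scaling by TMM, the 48 genes took the smallest share of counts in WT 4 (0.954%) and the largest in S155A 2 (1.16%).

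**Figure D4:**
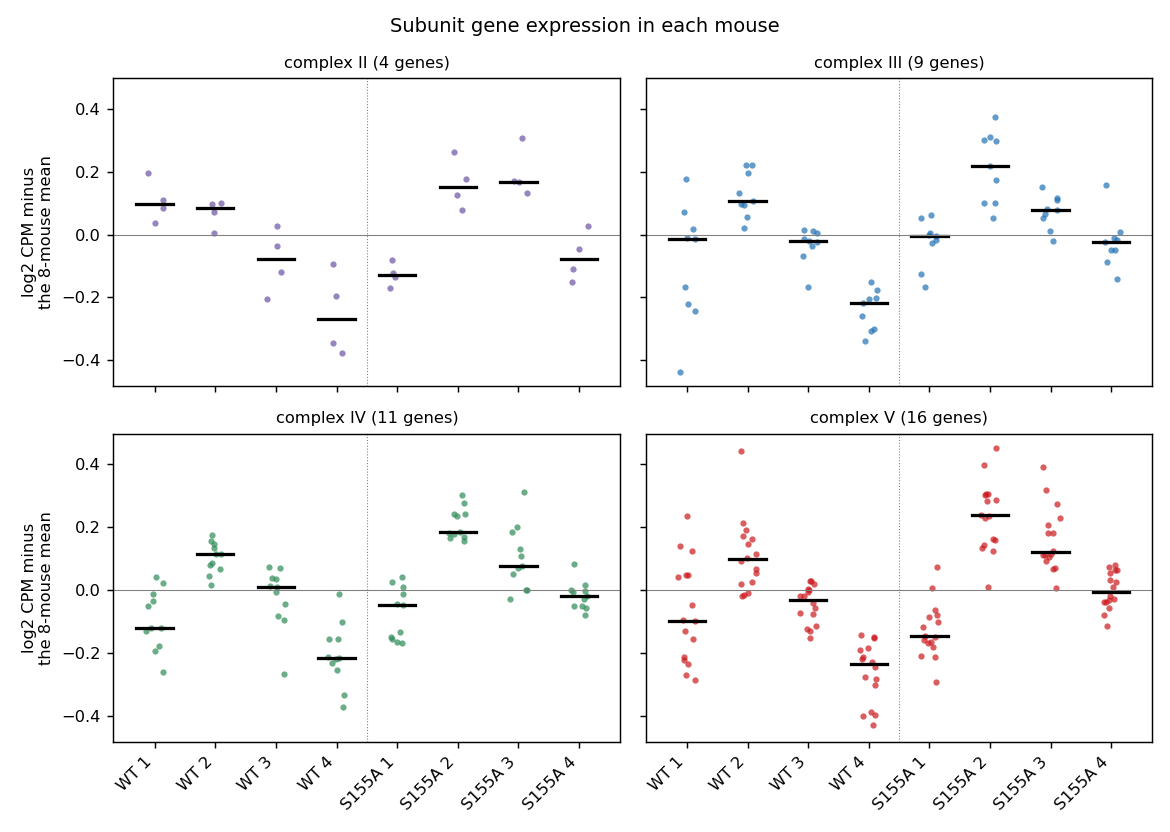
Log2 CPM of each gene minus its mean over the 8 mice, per mouse and complex, for the 40 members with a mean of at least 10 CPM. Each point is a gene and each black line the median, and the dotted line parts WT from S155A mice. WT 4 is the lowest mouse in all 4 panels, and S155A 2 is the highest in complexes III, IV and V.

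Marker genes of other cells also differed between these mice. Red blood cell markers (Hba-a1, Hbb-bs, Hbb-bt and Alas2) summed to 1940 CPM in WT 4 and to between 314 and 1110 CPM in the other 7, with 0 of 4 higher in the S155A mean. Stellate cell markers (Dcn, Lrat, Reln, Col1a1 and Pdgfrb) summed to 92.4 CPM in S155A 2, between 165 and 217 CPM in the other S155A mice and between 210 and 288 CPM in WT mice, with 0 of 5 higher in the S155A mean. Hepatocyte markers were highest in S155A 2 and S155A 3, at 123000 and 130000 CPM, and stood at 104000 CPM in WT 4. Kupffer cell markers lay between 142 and 297 CPM in WT mice and between 162 and 318 CPM in S155A mice. Lymphocyte markers lay between 3.04 and 7.70 CPM in WT mice and between 5.44 and 15.9 CPM in S155A mice. Of the Kupffer cell markers 5 of 5 were higher in the S155A mean, and of the lymphocyte markers 6 of 6. Endothelial markers (Stab2, Clec4g, Pecam1 and Kdr) were highest of the 8 mice in WT 4, above 130 CPM in sum, and lowest in S155A 2, at 88.3 CPM, with 1 of 4 higher in the S155A mean. The other WT mice summed to between 104 and 117 CPM and the other S155A mice to between 96.9 and 130 CPM. The part of these cell markers in the levels of the subunit genes was not tested.

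The labels carry animal numbers that fall into a low range, for WT 1, WT 4, S155A 1 and S155A 4, and a high range, for WT 2, WT 3, S155A 2 and S155A 3. What these series mark is not said in the labels. Within the low series, the S155A mean was higher for 36 of 43 members, with a median difference in log2 CPM of 0.09. Within the high series it was higher for 38 of 43, with a median of 0.13. The S155A mean was higher in both series for 32 members and lower in both for 1, Cox6b2, while 10 had opposite signs. By complex, the low and high medians were -0.04 and 0.15 in complex II, 0.17 and 0.08 in complex III, 0.09 and 0.08 in complex IV and 0.12 and 0.14 in complex V. No member passed the test of the interaction of genotype and series (edgeR smallest adjusted p = 0.536), and 0 of 43 had an unadjusted p under 0.05, where 11.1% of all genes did. For Atp5g1 the difference was 0.21 in the low and 0.37 in the high series, and for Sdhb it was 0.09 and 0.38. Cox7a2l differed by -0.07 in the low and 0.28 in the high series.

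With the series as a block in the edgeR fit, Atp5g1 and Atp5k were under an unadjusted p of 0.05, where 4.24% of all genes were. Both had an adjusted p of 0.945 in this edgeR fit. Their log2 fold changes in that fit were 0.29 and 0.20.

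**Figure D5:**
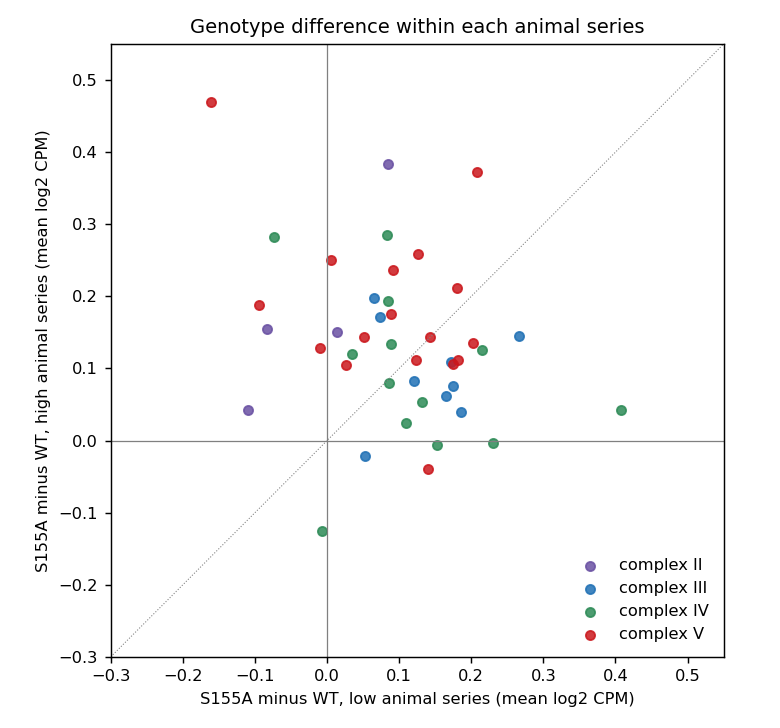
Difference in mean log2 CPM between S155A and WT mice within the low series (x axis) and the high series (y axis), 2 mice per genotype in each, with a dot for each of the 43 tested genes. The grey diagonal marks equal differences. Of the 43 dots, 32 lie above 0 on both axes and 10 have opposite signs.

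More members were under an unadjusted p of 0.05 between the series than between the genotypes, in a comparison that was chosen after the values were seen. In a fit with genotype and series, 41 of 43 members were higher in the high series, against 49.2% of all genes, and the median log2 fold change (high over low) was 0.175. At an unadjusted p under 0.05, 14 members were higher in the high series, where 6.64% of all genes were, and 0 members passed at an adjusted p under 0.05, where 0.0% of all genes did. Every high-series mouse lay above every low-series mouse for 8 members (Uqcr10, Uqcr11, Cox4i1, Cox6b1, Cox6c, Atp5j2, Atp5l and Atp5o), where 3.53% of all genes did so. Atp5o, the stalk subunit that confers oligomycin sensitivity, was at 213, 193, 238 and 240 CPM in the high-series mice WT 2, WT 3, S155A 2 and S155A 3. It was at 180, 147, 166 and 182 CPM in the low-series mice WT 1, WT 4, S155A 1 and S155A 4. Its log2 fold change between series was 0.38 (standard error 0.10, edgeR adjusted p = 0.205). Of the extremes among the mice, WT 4 is in the low and S155A 2 in the high series.

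Of the cell marker lists examined, only the endothelial and adipocyte lists separated the series fully. The 4 endothelial markers summed to at least 117 CPM in each low-series mouse and to 104, 110, 88.3 and 96.9 CPM in the high-series mice WT 2, WT 3, S155A 2 and S155A 3. Of the adipocyte markers Adipoq, Plin1, Cidec and Lep, 1 of 4 passed the filter, and Lep was at 0 in every library. Their sum was 118, 60.1, 131 and 68.3 CPM in the low-series mice WT 1, WT 4, S155A 1 and S155A 4. It was 43.5, 57.4, 40.3 and 36.2 CPM in the high-series mice. This sum rests mainly on 1 gene, so it does not stand for the list as a whole or measure adipocytes. In both lists every low-series mouse lay above every high-series mouse, the reverse of the 8 members that separated the series fully. The part of these markers in the series difference was not tested.

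Because the members varied together, their promoters were searched for short motifs of factors known to drive respiratory genes. RefSeq windows on GRCm38.p6, from 250 bases before the transcription start to 50 after it, matched 32 of the 43 tested members by symbol. Motifs were searched on both strands, and a gene was counted if any of its windows held the motif. Several windows were present for 3 of the 32 members, 2121 of 10450 tested genes and 4163 of all 27025 genes. The shares compared thus rest on unequal amounts of sequence per gene. The ETS core bound by the GABP complex (CCGGAAG) was present in 12 of 32 members, or 37.5%, against 18.9% of 10450 tested genes with a window and 9.93% of all 27025 genes. The palindromic NRF1 element (GCGCA and GCGC with any base between) was in 10 members, or 31.2%, against 10.9% and 5.19%. The YY1 core (AANATGGC) was in 4, or 12.5%, against 9.61% and 6.96%. At least 1 of these 3 was in 65.6% of members, 33.6% of tested genes and 19.4% of all genes with a window.

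Other motifs gave a different picture. The estrogen-related receptor half-site (AAGGTCA) was in 5 members, or 15.6%, against 4.26% of tested genes. The SP1 box (GGGCGG) was in 34.4% against 66.0%, and the TATA element (TATAAA) was in 3.12% against 9.31%. Each motif was counted on its own, so an ETS core and a receptor half-site could share the letters AAG, and no test was made of these shares. Median GC content was 56.2% in member windows and 60.3% in those of tested genes. By complex, the NRF1 element was in 2 genes of complex II, 1 of III, 1 of IV and 6 of V. The ETS core was in 2, 2, 3 and 5. The 32 members with a window were not all of the tested members and were spread unevenly over the complexes, so these counts are not shares.

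The windows of 5 members are shown, 4 with an ETS core or NRF1 element, 1 per complex, and Atp5g1, the member with the smallest p, which held neither. They are printed 5′ to 3′ in the direction of transcription, and capitals mark ETS cores (CTTCCGG when read on the other strand) and NRF1 elements.
Sdhd, chr9:50603800-50604099, reverse strand: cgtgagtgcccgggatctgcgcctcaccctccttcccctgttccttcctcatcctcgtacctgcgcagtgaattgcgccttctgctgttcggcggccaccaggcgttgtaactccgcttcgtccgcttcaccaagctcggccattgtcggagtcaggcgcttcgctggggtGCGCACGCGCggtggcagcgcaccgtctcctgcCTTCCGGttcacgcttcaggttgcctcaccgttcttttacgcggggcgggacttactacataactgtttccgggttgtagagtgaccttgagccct
Uqcrh, chr4:116075021-116075320, reverse strand: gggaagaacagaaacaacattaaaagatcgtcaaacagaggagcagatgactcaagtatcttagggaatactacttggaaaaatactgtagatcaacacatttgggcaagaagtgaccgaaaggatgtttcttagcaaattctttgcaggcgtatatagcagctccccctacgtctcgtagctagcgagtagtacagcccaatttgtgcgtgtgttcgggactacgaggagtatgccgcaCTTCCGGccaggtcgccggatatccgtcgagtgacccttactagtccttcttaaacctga
Cox6a1, chr5:115348909-115349208, reverse strand: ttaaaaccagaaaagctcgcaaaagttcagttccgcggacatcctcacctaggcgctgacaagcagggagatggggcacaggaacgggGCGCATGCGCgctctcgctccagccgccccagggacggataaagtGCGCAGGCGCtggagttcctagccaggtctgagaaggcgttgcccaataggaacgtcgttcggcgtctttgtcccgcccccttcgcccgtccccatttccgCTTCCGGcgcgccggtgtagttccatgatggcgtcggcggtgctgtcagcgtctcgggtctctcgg
Atp5k, chr5:108434350-108434649, reverse strand: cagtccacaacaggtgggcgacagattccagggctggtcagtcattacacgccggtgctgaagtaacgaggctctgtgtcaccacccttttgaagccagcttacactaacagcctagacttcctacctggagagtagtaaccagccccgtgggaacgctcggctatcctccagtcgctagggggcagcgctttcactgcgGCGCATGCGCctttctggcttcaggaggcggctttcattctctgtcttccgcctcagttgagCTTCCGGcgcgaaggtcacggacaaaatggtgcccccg
Atp5g1, chr11:96075582-96075881, reverse strand: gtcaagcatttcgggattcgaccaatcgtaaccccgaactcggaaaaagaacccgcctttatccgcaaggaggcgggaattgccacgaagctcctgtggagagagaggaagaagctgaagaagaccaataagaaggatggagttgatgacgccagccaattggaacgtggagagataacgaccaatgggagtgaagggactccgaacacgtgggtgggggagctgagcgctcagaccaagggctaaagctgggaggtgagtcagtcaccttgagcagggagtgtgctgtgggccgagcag
In Sdhd, the NRF1 element begins 79 bases before the start site and the ETS core 46 bases before it. In Uqcrh, the ETS core begins 10 bases before the start. Cox6a1 holds 2 NRF1 elements, 162 and 117 bases before the start, and an ETS core 16 bases before it. In Atp5k, the NRF1 element begins 50 bases before the start and the ETS core at base 13 after it. These 5 genes had log2 fold changes between genotypes of 0.04, 0.14, 0.11, 0.20 and 0.30. A match is a description of letters and says nothing on binding in these livers.

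Of the other genes of the pathway, 0 genes of any of these lists were under an unadjusted p of 0.05 between genotypes. Of all genes tested, 3.4% were, and 48.8% had a log2 fold change above 0. Nuclear subunit genes of complex I were taken by symbol alone (Nduf, then a, b, c, s or v and a number), without a check of each gene's place in the complex. Of these 37 genes, 35 were higher in the S155A mean, with a median log2 fold change of 0.12. These genes shared the extremes among the mice, with a median deviation of -0.23 in WT 4, the lowest, and 0.21 in S155A 2, the highest. Between the series, 36 of 37 were higher in the high series, against 49.2% of all genes, with a median log2 fold change of 0.185. At an unadjusted p under 0.05, 13 were higher in the high series, where 6.64% of all genes were. At an adjusted p under 0.05 the count was 0 (edgeR). The smallest p between genotypes was that of Ndufs5, at 53.0 ± 5.92 CPM in WT and 62.9 ± 5.37 CPM in S155A mice (SD, n = 4 each), with a log2 fold change of 0.25 (edgeR unadjusted p = 0.0502, adjusted p = 0.993). Of the complex I genes with a window, 35.3% held the YY1 core, 20.6% the NRF1 element and 11.8% the ETS core.

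Among 35 assembly factors of complexes II to V, 33 were tested and 27 were higher in the S155A mean, with a median log2 fold change of 0.09. Those with the smallest p were Lyrm7, a chaperone of the Rieske protein, at 0.62, Pet100, a biogenesis factor of complex IV, at 0.27, and Bcs1l, which inserts the Rieske protein, at 0.18, all at an edgeR adjusted p of 0.993. Lyrm7 is a low gene, at 1.38 ± 0.372 CPM in WT and 2.14 ± 0.883 CPM in S155A mice (SD, n = 4 each). Cycs, for cytochrome c, the carrier between complexes III and IV, had a log2 fold change of 0.10.

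Of 10 regulators of respiratory genes, 4 were higher in the S155A mean, with a median log2 fold change of -0.07. Yy1 was at 23.2, 15.2, 19.1 and 16.9 CPM in WT mice and 16.2, 13.1, 15.1 and 16.9 CPM in S155A mice, a log2 fold change of -0.28 (standard error 0.15). Ppargc1b, a coactivator of the family of PGC-1alpha, had 0.35 (standard error 0.25) and Nrf1 had -0.17 (standard error 0.14). None of these 3 had an edgeR adjusted p below 0.993.

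The 6 mitochondrially encoded subunits of complexes III to V were all higher in the S155A mean, by a median log2 fold change of 0.06 and a range of 0.00 to 0.17. The largest was mt-Atp8, for a small membrane subunit of complex V, at 122, 115, 124 and 123 CPM in WT mice and 141, 149, 125 and 132 CPM in S155A mice. Every S155A mouse lay above every WT mouse, the closest pair being S155A 3 at 125 CPM and WT 3 at 124 CPM, where 0.943% of all genes did so in that direction. Its edgeR unadjusted p was 0.0903 and its adjusted p 0.993. The mitochondrially encoded genes did not share the mouse-to-mouse pattern in full, with medians of -0.04 in WT 4 and 0.115 in S155A 2 and the lowest value, -0.10, in WT 2.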

How the data were processed

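Liver RNA from 4 WT and 4 S155A mice (1 library per mouse, RNA integrity number above 7.2, stranded mRNA libraries, paired reads of 100 bases) had been sequenced by the authors. They deposited expected counts (estimated counts per gene from salmon, scaled for average transcript length, not for library size). The salmon version, annotation release and use of strand are not given in the sources used here. The submitters' processing notes name GRCm38, bcl2fastq, STAR, SAMtools, MultiQC and DESeq2. Length scaling can move a count where isoform use varies, and salmon's model shares out reads that several genes could give.

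Columns were matched to mice by animal number. Counts were rounded to whole numbers, filtered with filterByExpr (minimum count 10), TMM-scaled and tested with edgeR 4.0.16 (quasi-likelihood, genotype only, Benjamini-Hochberg over 14629 genes) in R 4.3.3. CPM uses TMM-scaled library sizes, and log2 CPM a prior count of 2. Standard errors and 95% intervals come from the F statistic. Exact permutation tests of log2 CPM were two-sided, and 4 mice against 4 cannot give a p under 0.0286. The labels call the samples biological replicates. Alternatives were DESeq2 1.42.0, limma-voom (limma 3.58.1), other scalings and filters, a robust fit, blocks for replicate number and animal series, and leaving out each mouse. The fits were tested on simulated data. No 2 libraries were copies (lowest chi-square per gene 31.6). Depth ranged from 39709785 to 54540864 counts.

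The members and lists were chosen with earlier results of these data known. Genes were named by a rule: in each complex the highest CPM and the smallest p (2 in complex II, 3 in III, 4 in IV and in V), the catalytic and core subunits, the isoform sets, and all members not tested, with others by range. Coordinates are from GENCODE M21 (GRCm38). Transcript lengths are those of the principal transcripts. Promoters are from RefSeq (GRCm38.p6).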

Additional observations from a re-analysis of the deposited data

Results flagged for a closer look

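The 4 values of each genotype were searched by Dixon's ratio for a mouse far from the other 3, for the 43 members and the medians of the 4 complexes, 94 groups in all. This gave 5 such values, where chance gives about 4.7 (1 in 20). The groups share the same 8 mice, so they are not separate draws. Atp5g3 stood at 375 CPM in WT 4, against 453 to 465 CPM in the other WT mice, and at 467 CPM in S155A 1, against 446 to 447 CPM in the other S155A mice. Cox7b stood at 129 CPM in WT 4, against 169 to 172 CPM. Uqcrq stood at 454 CPM in S155A 2, against 357 to 368 CPM. Cox7a1 stood at 1.64 CPM in WT 3, against 0.727 to 0.877 CPM. Of these 5 values, 2 are from WT 4, which was the lowest of the 8 mice for 30 of 43 members. The S155A 2 mouse, which was the highest for 29, gave 1.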

How the results depend on the processing

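No member was called at an adjusted p under 0.05 under any of the 10 alternatives or with any mouse left out. Over all genes, DESeq2 called 7 genes (0.0347%) where edgeR called 0. With no filter on low counts, 1 member, Cox6a2, did not overlap between genotypes, where 1.87% of all genes did not. Replicate numbers did not pair the mice (correlations of deviations 0.056, 0.166, -0.111 and 0.129), and with the replicate block 1 member, Atp5g1 (p = 0.0278), was under an unadjusted p of 0.05, where 3.96% of all genes were. With the animal series block 2 were, and 4.24% of all genes. With library size alone, Sdhd reversed to -0.003 and Uqcrc2 to -0.031, the only 2 reversals among 429 single-gene values outside the fits without a mouse.

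With each mouse left out, members under an unadjusted p of 0.05 ranged from 0 to 3 and members with no overlap from 0 to 3, the 3 being reached without WT 2, where the shares over all genes were 4.61% and 6.04%. Without S155A 1 the counts were 1 and 2, and the shares 6.02% and 6.76%. Without S155A 4 they were 0 and 1, and the shares 4.2% and 4.61%. Median log2 fold changes ranged from -0.019 to 0.118 in complex II, from 0.056 to 0.195 in III, from 0.048 to 0.151 in IV and from 0.078 to 0.225 in V. The lowest were without WT 4, or without S155A 2 in complex IV. Of 43 members, 35 kept their direction with any mouse left out. The 8 others ranged from -0.015 to 0.095 (Sdhd), -0.022 to 0.076 (Atp5g3), -0.081 to 0.019 (Sdha), -0.015 to 0.123 (Atp5j), -0.021 to 0.137 (Atp5a1), -0.087 to 0.071 (Uqcrc2), -0.175 to 0.03 (Cox6b2) and -0.023 to 0.159 (Sdhc). The cause was not tested. With 4 mice per genotype, differences below the upper bounds given for the members could not be resolved.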
